A study of Mus musculus with 71 samples.

Results

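The 10 genes described here encode sensors and transcription factors of the unfolded protein response, the programme a cell starts when misfolded proteins build up in the endoplasmic reticulum (ER), with the ER membrane protein Herpud1 and the cysteine-glutathione enzyme Chac1 as readouts. They were listed by name, with earlier results of these data known, and all 10 were found among the 55416 gene identifiers of the deposited table. They were read in all 71 libraries by region, treatment and batch, and split into an Xbp1/Atf6 arm of 4 genes (Ern1, Xbp1, Atf6 and Herpud1) and an Atf4/Ddit3 arm of 6 genes (Eif2ak3, Atf4, Ddit3, Trib3, Chac1 and Atf3).

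The libraries came from the hippocampus, frontal cortex and piriform cortex of C57BL/6J mice, in a study of how the brain transcriptome differs after a non-severe burn. Burn mice had a brass rod 19 mm across, at over 90 °C, held on the shaved right flank for 10 s, which gave a full-thickness burn of 7 to 8% of the body surface. Excision mice had skin of full thickness cut from the back after scoring with a 12 mm punch, and sham mice were shaved there and not injured. Every group had isoflurane anaesthesia, buprenorphine (0.1 mg/kg) and paracetamol (1 mg/mL in the drinking water for 5 days), so the drugs were common to the controls, while burn and the other procedures also differed in body site. The hippocampus gave 10 burn, 10 excision and 9 sham libraries and the frontal cortex 10, 10 and 8, each in 2 batches, and the piriform cortex gave 5, 4 and 5 in a batch of its own. The time between injury and collection, and whether regions or libraries shared an animal, do not appear among the labels, so p-values measure the spread between libraries. Library names share run codes and numbers between hippocampus and frontal cortex, with the same treatment where they match. The same mice may thus have given both regions, and the comparisons between regions took libraries as independent.

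In this response, ER membrane sensors detect unfolded protein. IRE1 (gene Ern1) splices the messenger RNA of Xbp1, and ATF6 is cut to release a transcription factor, and both factors raise chaperones and ER degradation genes. The kinase PERK (gene Eif2ak3) slows translation, which favours translation of ATF4, and ATF4 in turn raises Ddit3 (the factor CHOP), Trib3, Chac1 and Atf3. Splicing of Xbp1, cutting of ATF6 and translation of Atf4 are not visible in counts per gene, so the values below are total transcript levels.

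Promoter stretches are shown because some carry binding motifs of the factors of the arms, though the motifs do not separate the arms. In addition, 4 of the target genes that fell after burn, described below, hold one of them. Targets that hold an ERSE and were not called are not shown. The sequences are from RefSeq (build GRCm38.p6), 5′ to 3′ on the strand of the gene, with the fixed letters of a motif in capitals. Windows from 250 bases before to 50 bases after the start were found for 9 of the 10 genes. Xbp1 (chr11:5520541-5520640, + strand) held none of the 4 motifs searched. Herpud1 (chr8:94386304-94386398, +) held an ERSE-II and a CARE. Chac1 (chr2:119351032-119351072, +) and Atf3 (chr1:191183419-191183463, -) each held a CARE. Hspa5 (chr2:34772010-34772059, +), Creld2 (chr15:88819505-88819554, +), Pdia6 (chr12:17266476-17266525, +) and Syvn1 (chr19:6046516-6046565, +), which are targets and not members, held an ERSE.
Xbp1: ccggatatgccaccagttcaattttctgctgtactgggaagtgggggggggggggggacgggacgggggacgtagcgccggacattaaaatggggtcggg
Herpud1: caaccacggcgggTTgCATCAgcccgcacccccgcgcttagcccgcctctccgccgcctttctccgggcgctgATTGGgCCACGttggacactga
Chac1: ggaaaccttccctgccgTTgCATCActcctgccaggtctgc
Atf3: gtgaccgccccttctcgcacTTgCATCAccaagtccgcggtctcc
Hspa5: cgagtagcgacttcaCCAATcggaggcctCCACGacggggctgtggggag
Creld2: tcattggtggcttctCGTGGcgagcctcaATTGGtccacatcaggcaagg
Pdia6: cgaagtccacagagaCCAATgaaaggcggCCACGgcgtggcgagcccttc
Syvn1: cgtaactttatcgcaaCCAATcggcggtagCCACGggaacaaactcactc

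The ER stress element ERSE, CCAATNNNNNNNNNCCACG, is bound by ATF6 and XBP1, and on either strand it was present in 39 of 32851 promoter windows (0.119%). None of the 9 members with a window held it, while 9 of the 21 XBP1 and ATF6 targets with a window did. ERSE-II, ATTGGNCCACG, was in 0.0365% of windows, and Herpud1 was the only member with it. The UPRE core, TGACGTGG, was in 0.676% of windows and in 0 members. The CARE motif TGATGNAA, bound by ATF4 dimers, was in 3.97% of windows, in 4 members (Atf3, Chac1, Herpud1 and Trib3), in 5 of 20 ATF4 and CHOP targets and in 0 of the 21 XBP1 and ATF6 targets. The motifs share no bases in the stretches shown, and a match is a description of letters, not of binding.

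Total counts, in M (1e6 counts), were 6.65 to 34.1 in hippocampus batch 1, 30.7 to 70.7 in hippocampus batch 2 and 46.8 to 87.8 in the cortical batches, and 4 hippocampal libraries held under 10 M. For 4 libraries title and treatment field disagree, and the field was used (frontal cortex burn replicates 7 and 8, titled sham, frontal cortex excision replicate 7, titled burn, and piriform cortex sham replicate 2, titled excision). Numbers in the library names run in blocks by treatment. The field of these libraries follows the blocks of the hippocampus, batch 2 for the frontal cortex and batch 1 for the piriform cortex, and their titles do not. Prox1, a dentate gyrus marker, was at 26.2 to 82.8 CPM (counts per 1e6 counts, after TMM scaling) in the hippocampus and 3.85 to 11.9 CPM in the frontal cortex. It was at 43.6 CPM in piriform cortex sham replicate 1 and at most 8.72 CPM in the other piriform libraries. Frontal cortex burn replicate 6 stood apart in 4 members, with the highest Atf4 and Ddit3 and the lowest Eif2ak3 and Ern1 of the 10 burn libraries.

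Per kilobase of exon, Atf4 was the most abundant member in sham tissue of every region, followed by Xbp1, Herpud1, Ddit3, Atf6, Chac1 and Eif2ak3. In sham hippocampus Atf4 stood at 62.7 ± 4.59 RPKM (CPM per kilobase of exon, SD, n = 9), Xbp1 at 28.9 ± 2.03 RPKM and Herpud1 at 22.1 ± 1.60 RPKM. Ddit3 was at 12.4 ± 2.16 RPKM, Atf6 at 6.58 ± 1.18 RPKM, Chac1 at 4.94 ± 0.413 RPKM and Eif2ak3 at 3.22 ± 0.441 RPKM. Ern1, Atf3 and Trib3 were the lowest, at 0.822 ± 0.162, 0.523 ± 0.160 and 0.203 ± 0.0795 RPKM. Ranges over the hippocampal sham libraries overlapped between Atf6 and Chac1, between Ern1 and Atf3 and between Atf3 and Trib3, and the other neighbours in the order were apart. Trib3 rested on few reads, with as few as 2 counts in a library.

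The regions were compared in sham libraries with edgeR's quasi-likelihood test and Benjamini-Hochberg adjustment over all genes tested, and a gene is said to rise or fall where the adjusted p was under 0.05. Of the 10 members, 5 were lower in the hippocampus than in the frontal cortex and 0 were higher, in a comparison where 20.1% of 19336 genes were called lower and 41% in either direction. They were Atf6 (-0.53 on the log2 scale, SE 0.11, adjusted p = 0.000941), Atf3 (-1.35, SE 0.37, adjusted p = 0.00625), Eif2ak3 (-0.23, SE 0.08, adjusted p = 0.0276), Ern1 (-0.37, SE 0.13, adjusted p = 0.0291) and Xbp1 (-0.18, SE 0.07, adjusted p = 0.0406). With each of the 17 sham libraries left out in turn, Atf6 and Atf3 stayed below the threshold in all 17 fits, Eif2ak3 in 14, Ern1 in 11 and Xbp1 in 7. Eif2ak3 was lost without hippocampus sham replicate 3 or 4 or frontal cortex replicate 8, and Ern1 without hippocampus replicate 2, 3 or 8 or frontal cortex replicate 2, 4 or 6. Xbp1 was lost without hippocampus replicate 3, 4, 5, 6 or 8 or frontal cortex replicate 1, 3, 5, 7 or 8, with a largest adjusted p of 0.0978. The difference in Atf3 includes frontal cortex sham libraries of batch 2 that were far above those of batch 1, as described below.

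In the piriform cortex against the frontal cortex, Herpud1 was higher by 0.34 (SE 0.10, adjusted p = 0.0416) and was the only member called, against 4.51% of 20576 genes called higher, 4.28% lower and 8.79% in either direction. Without piriform cortex sham replicate 1, where Prox1 was at 43.6 CPM, it was 0.37 (SE 0.10, adjusted p = 0.041). Of the 13 fits that each left out 1 sham library, Herpud1 was called in 4, those without that library or frontal cortex replicate 1, 3 or 5, and the highest adjusted p was 0.122. The piriform cortex and the frontal cortex were never in the same batch, so region and batch cannot be told apart there.

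Burn was compared with sham and with excision to see which transcripts a thermal injury of the skin moved beyond handling and beyond a wound without heat. In the hippocampus Xbp1 (ENSMUSG00000020484, GRCm38 chromosome 11, 5520659 to 5525893), the factor that IRE1 activates, was lower after burn, and it was the only one of the 10 members that passed the test. In batch 2 it was at 57.5, 63.1, 65.2, 66.9 and 68.9 CPM in the burn libraries and at 87.2, 87.9, 89.4, 95.9 and 99.3 CPM in the sham libraries. Every burn library of that batch lay below every sham library, and the excision libraries, at 68.8, 84.1, 84.9, 89.7 and 91.3 CPM, overlapped both groups. In batch 1 burn libraries were at 82.2, 83.9, 86.3, 91.1 and 96.5 CPM and sham libraries at 87.7, 92.7, 101 and 105 CPM, so the groups overlapped. Excision libraries of batch 1 were at 92.4, 110.4, 115, 119 and 129 CPM, above 4 of the 5 burn libraries. The share of all genes whose groups did not overlap within a batch was not counted, here or below.

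Over both batches the log2 fold change of Xbp1 was -0.34 against sham (SE 0.07, adjusted p = 0.0146), a decrease to 0.788 of the sham level, and -0.37 against excision (SE 0.07, adjusted p = 0.0149). For comparison, 0.741% of 19574 genes were called lower against sham (1.03% in either direction) and 0.143% against excision (0.0664% higher and 0.209% in either direction). Within batches the log2 difference from sham was -0.15 (SE 0.09, adjusted p = 0.349) in batch 1 and -0.53 (SE 0.08, adjusted p = 0.00979) in batch 2. The difference between the batches was -0.38 (SE 0.12, unadjusted p = 0.00283, adjusted p = 0.118) and was not called, in a comparison where 0.046% of genes and 0 of 10 members were. Against excision the batches gave -0.37 (adjusted p = 0.0485) and -0.38 (adjusted p = 0.183). Batch 2 alone called 31 of 19903 genes against sham, and batch 1 alone called 197 of 18680 genes against excision. The call against excision was also lost without the batch term (adjusted p = 0.103), with the replicate number as a block (0.0608) and without the libraries under 10 M counts (0.134), and the call against sham without the batch term (0.147). In bulk tissue, fewer cells that express a gene and less RNA per cell cannot be told apart.

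Summed over 12 choroid plexus and ependymal markers, the level was 56.4 to 7060 CPM in hippocampal burn libraries and 57.7 to 5470 CPM in sham libraries, with medians of 1750 and 195 CPM. All 12 had positive fold changes and 0 were called, and their part in the Xbp1 result was not tested. The same sum in the frontal cortex, where Xbp1 was also called, was 7.73 to 25.6 CPM in burn and 10.6 to 30.6 CPM in sham. Markers of other cell types also leaned one way in some of the burn contrasts, with 0 called in each list. In frontal cortex burn against sham, 0 of 10 astrocyte markers had a positive fold change (median -0.21), 0 of 10 microglial markers (-0.21), 1 of 10 endothelial markers (-0.28) and 0 of 8 striatal neuron markers (-0.38). Against excision there, 8 of 10 astrocyte, 3 of 10 microglial, 4 of 10 endothelial and 0 of 8 striatal markers (-0.59) were positive. In the hippocampus against excision 1 of 10 endothelial markers was positive (-0.34), and against sham 6 of 10 were. Against sham there, 10 of 10 astrocyte (0.10), 9 of 10 oligodendrocyte (0.14) and 2 of 8 hippocampal neuron markers (-0.19) were positive. Against excision, 9 of 10 astrocyte (0.09), 2 of 10 oligodendrocyte (-0.03), 2 of 8 hippocampal neuron (-0.23) and 12 of 12 choroid plexus and ependymal markers (0.925) were. The choroid plexus and ependymal sum had a median of 69.2 CPM after excision. The summed endothelial level was 89.1 to 168 CPM in frontal cortex burn and 104 to 346 CPM in sham, and 92.3 to 163 CPM in hippocampal burn and 114 to 159 CPM in excision. The part of these markers in the changes of Xbp1 and its targets was not tested.

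TEC gene models are a GENCODE class of transcripts awaiting experimental proof. In hippocampus batch 1 their counts took 0.0498 ± 0.0051% in burn and 0.0694 ± 0.0144% in sham (SD, n = 5 and 4). In hippocampus batch 2 the shares were 0.0700 ± 0.0076% and 0.0704 ± 0.0047% (n = 5 each). In frontal cortex batch 1 they were 0.0621 ± 0.0070% in burn and 0.0601 ± 0.0093% in sham (n = 5 each). Frontal cortex batch 2 had 0.0724 ± 0.0075% and 0.0778 ± 0.0107% (n = 5 and 3). The part of this share in the Xbp1 result was not tested.

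**Figure D1:**
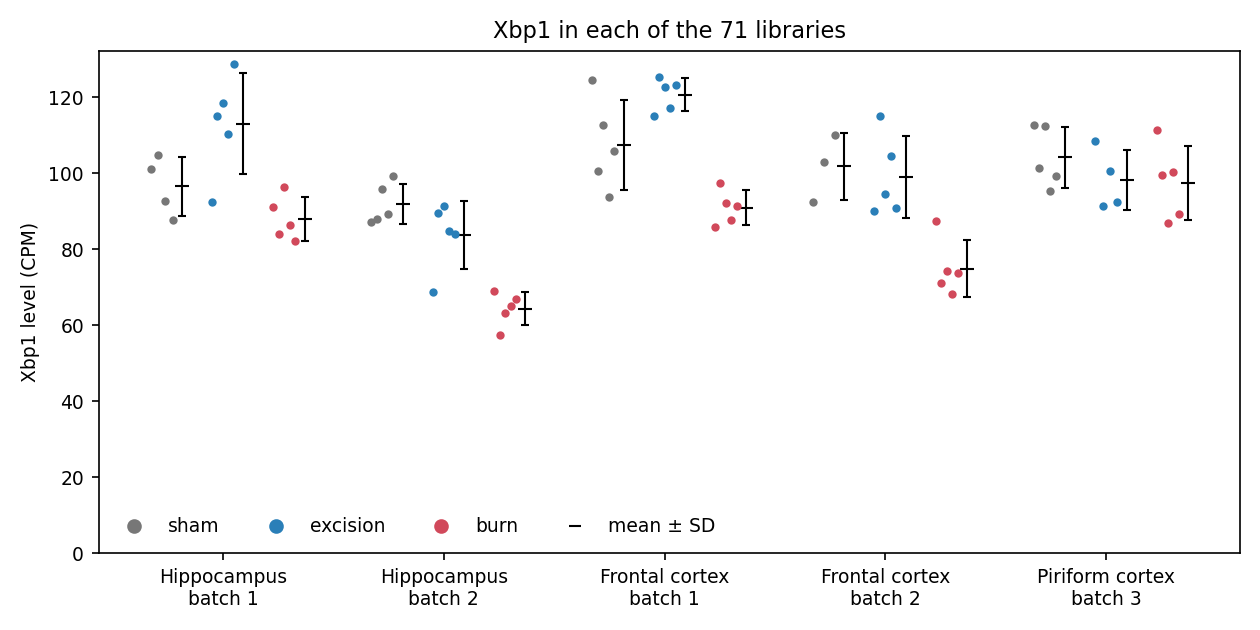
Level of Xbp1 in CPM (vertical axis, from 0) for each library, grouped by region and batch and coloured by treatment, with the mean and SD beside each group. Burn libraries lie below every sham library in batch 2 of the hippocampus and frontal cortex (57.5 to 68.9 CPM and 68.1 to 87.5 CPM after burn), and overlap sham in batch 1 of both and in the piriform cortex.

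In the frontal cortex Xbp1 was again lower after burn and again the only member called. Batch 1 burn libraries were at 85.8, 87.7, 91.5, 92.3 and 97.5 CPM, below every excision library (115 to 125 CPM) and overlapping sham (93.7, 101, 106, 113 and 125 CPM). Batch 2 burn libraries were at 68.1, 71.04, 73.7, 74.2 and 87.5 CPM, below all sham libraries (92.5, 103 and 110.1 CPM) and all excision libraries (90.0 to 115 CPM). The highest of them was burn replicate 6.

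Against sham, Xbp1 fell by 0.33 (SE 0.06, adjusted p = 0.0203), where 0.119% of 21077 genes were called lower and 0.28% in either direction. Against excision it fell by 0.41 (SE 0.06, adjusted p = 0.00151), where 0.128% of genes were called lower, 0.0807% higher and 0.209% in either direction. The batches gave -0.24 (SE 0.07, adjusted p = 0.0581) and -0.43 (SE 0.12, adjusted p = 0.751) against sham, neither of which passed alone, and -0.42 (adjusted p = 0.0123) and -0.40 (adjusted p = 1) against excision. The call against sham was lost without burn replicate 4 (adjusted p = 0.0777), sham replicate 7 (0.0639) or sham replicate 8 (0.0677), and without the libraries whose titles disagree, where the log2 difference was -0.31 (adjusted p = 0.056). With the treatment taken from the titles it was -0.16 (adjusted p = 0.552). It was also lost without the batch term (adjusted p = 0.0808), without the count filter (0.101) and with a replicate block (0.22). The call against excision was lost with the titles (-0.29, adjusted p = 0.255) and with a replicate block (0.1). Batch 1 alone called 1318 of 20430 genes against excision, and batch 2 alone called 0 of 21846. Among the libraries whose titles disagree, burn replicates 7 and 8 held Xbp1 at 71.04 and 74.2 CPM, within the range of the other burn libraries of the batch, and excision replicate 7 held it at 115 CPM, the highest excision value of the batch.

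The burn effect on Xbp1 in the hippocampus minus that in the frontal cortex was -0.04 (SE 0.10, unadjusted p = 0.66, adjusted p = 0.937). Of the 10 members 0 were called in that comparison of regions, where 0% of 21610 genes were called (1847 had an unadjusted p under 0.05, and the DESeq2 Wald test called 0). Xbp1 in the piriform cortex was at 87.0, 89.2, 99.6, 100.3 and 111 CPM after burn and at 95.2, 99.2, 101, 112 and 113 CPM in sham, with -0.10 (SE 0.08, adjusted p = 0.887). Those piriform sham libraries include replicate 1, where Prox1 was at 43.6 CPM. Each of the 14 piriform fits that left out 1 library called 0 members in burn against sham. The burn effects in the piriform cortex and in the other regions were not tested against each other.

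In excision against sham no member passed in any region. Xbp1 differed by 0.03 (SE 0.07) in the hippocampus, by 0.08 (SE 0.06) in the frontal cortex and by -0.09 (SE 0.09) in the piriform cortex. Within batches it was 0.22 and -0.14 in the hippocampus and 0.18 and -0.02 in the frontal cortex, so the sign differed between the batches. Of the 10 members 0 were called by edgeR in each region, against 0% of all genes, while 727, 1007 and 1102 genes of the 3 regions had an unadjusted p under 0.05 (0, 0 and 2 members) and the DESeq2 Wald test called 0, 0 and 2 genes. Burn and excision were set against the same sham libraries, so these values are not independent of those above. The burn contrasts of the piriform cortex also had none: edgeR called 0% of genes, with 896 genes under an unadjusted p of 0.05 against sham and 1658 against excision (1 and 4 members), and DESeq2 called 1 and 59 genes.

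The other 3 genes of the Xbp1/Atf6 arm did not pass in any treatment contrast. Ern1, the sensor that splices Xbp1, differed from sham after burn by 0.05 (SE 0.11) in the hippocampus, -0.09 (SE 0.17) in the frontal cortex and 0.14 (SE 0.17) in the piriform cortex. Atf6, the other ER membrane sensor of the arm, was near its sham level in hippocampal burn libraries (-0.03, SE 0.09) and above it in the frontal cortex (0.25, SE 0.11, unadjusted p = 0.025, adjusted p = 0.309).

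That frontal cortex difference in Atf6 was larger in batch 1. There burn libraries were at 107, 117, 126, 135 and 136 CPM and sham libraries at 77.0, 89.7, 91.1, 93.5 and 106 CPM, and every burn library was above every sham library. Fitted alone, batch 1 gave 0.44 (SE 0.11, adjusted p = 0.0337) against sham and 0.43 (SE 0.11, adjusted p = 0.0359) against excision. Those fits called 1328 and 1318 of 20430 genes. In batch 2 burn libraries were at 63.6 to 101 CPM and sham libraries at 63.2 to 86.5 CPM, with a difference of 0.03 (SE 0.16, adjusted p = 0.967). The difference between the batches was -0.43 (SE 0.20, unadjusted p = 0.0399, adjusted p = 0.239), where 0% of genes and 0 of 10 members were called (4088 genes at an unadjusted p under 0.05, and 276 genes by DESeq2).

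Herpud1, an ER membrane protein of ER-associated degradation with both kinds of motif in its promoter, was lower after burn than after excision at an unadjusted p only. In frontal cortex batch 2 burn libraries were at 40.7, 44.3, 44.6, 46.0 and 47.0 CPM and excision libraries at 47.3, 48.6, 48.7, 51.6 and 54.0 CPM, which did not overlap. In the other batches the groups overlapped. The log2 differences were -0.17 (SE 0.06, unadjusted p = 0.00682, adjusted p = 0.184) in the hippocampus and -0.16 (SE 0.06, unadjusted p = 0.00703, adjusted p = 0.252) in the frontal cortex. Against sham they were -0.06 (SE 0.06) and -0.08 (SE 0.06). Piriform Herpud1 was at 47.4 to 59.1 CPM after excision and 56.1 to 67.1 CPM after burn, a difference of the opposite sign (0.21, SE 0.09, adjusted p = 0.627).

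In the Atf4/Ddit3 arm 0 of 6 genes passed in any of the 9 treatment contrasts. Atf4, the factor of the arm, was at 136, 140.3, 142, 145 and 162 CPM in the burn libraries of hippocampus batch 1 and at 133 to 169.8 CPM in those of batch 2, where the sham libraries of both batches were at 134 to 169 CPM. Its difference from sham after burn was -0.05 (SE 0.06, adjusted p = 0.733) in the hippocampus, -0.04 (SE 0.09, adjusted p = 0.891) in the frontal cortex and -0.20 (SE 0.10, adjusted p = 0.884) in the piriform cortex. Eif2ak3, which encodes PERK, differed by 0.11 (SE 0.07), 0.17 (SE 0.08, unadjusted p = 0.0403, adjusted p = 0.358) and -0.06 (SE 0.10). In frontal cortex batch 1 its burn libraries (25.2 to 27.3 CPM) were all above sham (20.8 to 23.3 CPM) and excision (19.2 to 24.6 CPM).

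Ddit3, the pro-apoptotic factor CHOP, was lower after burn in batch 1 of the frontal cortex. Burn libraries there were at 16.8, 17.2, 17.4, 18.1 and 18.5 CPM, below all sham (20.9, 21.8, 21.99, 28.5 and 33.3 CPM) and excision libraries (22.5 to 28.8 CPM). In batch 2 burn libraries at 15.7, 18.5, 19.1, 19.8 and 25.6 CPM overlapped sham at 19.9, 21.5 and 22.7 CPM, and the highest was replicate 6.

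Over both batches Ddit3 differed by -0.35 (SE 0.11, unadjusted p = 0.00265, adjusted p = 0.138) from sham and by -0.36 (SE 0.10, unadjusted p = 0.00109, adjusted p = 0.157) from excision. Without burn replicate 6 both differences passed, at -0.40 (SE 0.10, adjusted p = 0.0444) and -0.43 (SE 0.09, adjusted p = 0.0223). Batch 1 alone also passed, at -0.53 (adjusted p = 0.0274) and -0.50 (adjusted p = 0.0285), while batch 2 alone gave -0.10 (adjusted p = 0.894) and -0.24 (adjusted p = 1). Batch 1 alone called 1328 of 20430 genes against sham and 1318 against excision. Without burn replicate 4 neither difference passed (adjusted p = 0.295 and 0.356), nor without sham replicate 7 (0.207 and 0.189). Fits that left out 1 library called 19 to 206 genes against sham and 10 to 284 against excision. In the hippocampus Ddit3 differed from sham by -0.12 (SE 0.09). The 3′ end of Ddit3 overlaps Mars on the opposite strand (GRCm38 chromosome 10, 127296221 to 127296288), and the strand setting of the counting is not given, so reads from that stretch cannot be told apart.

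**Figure D2:**
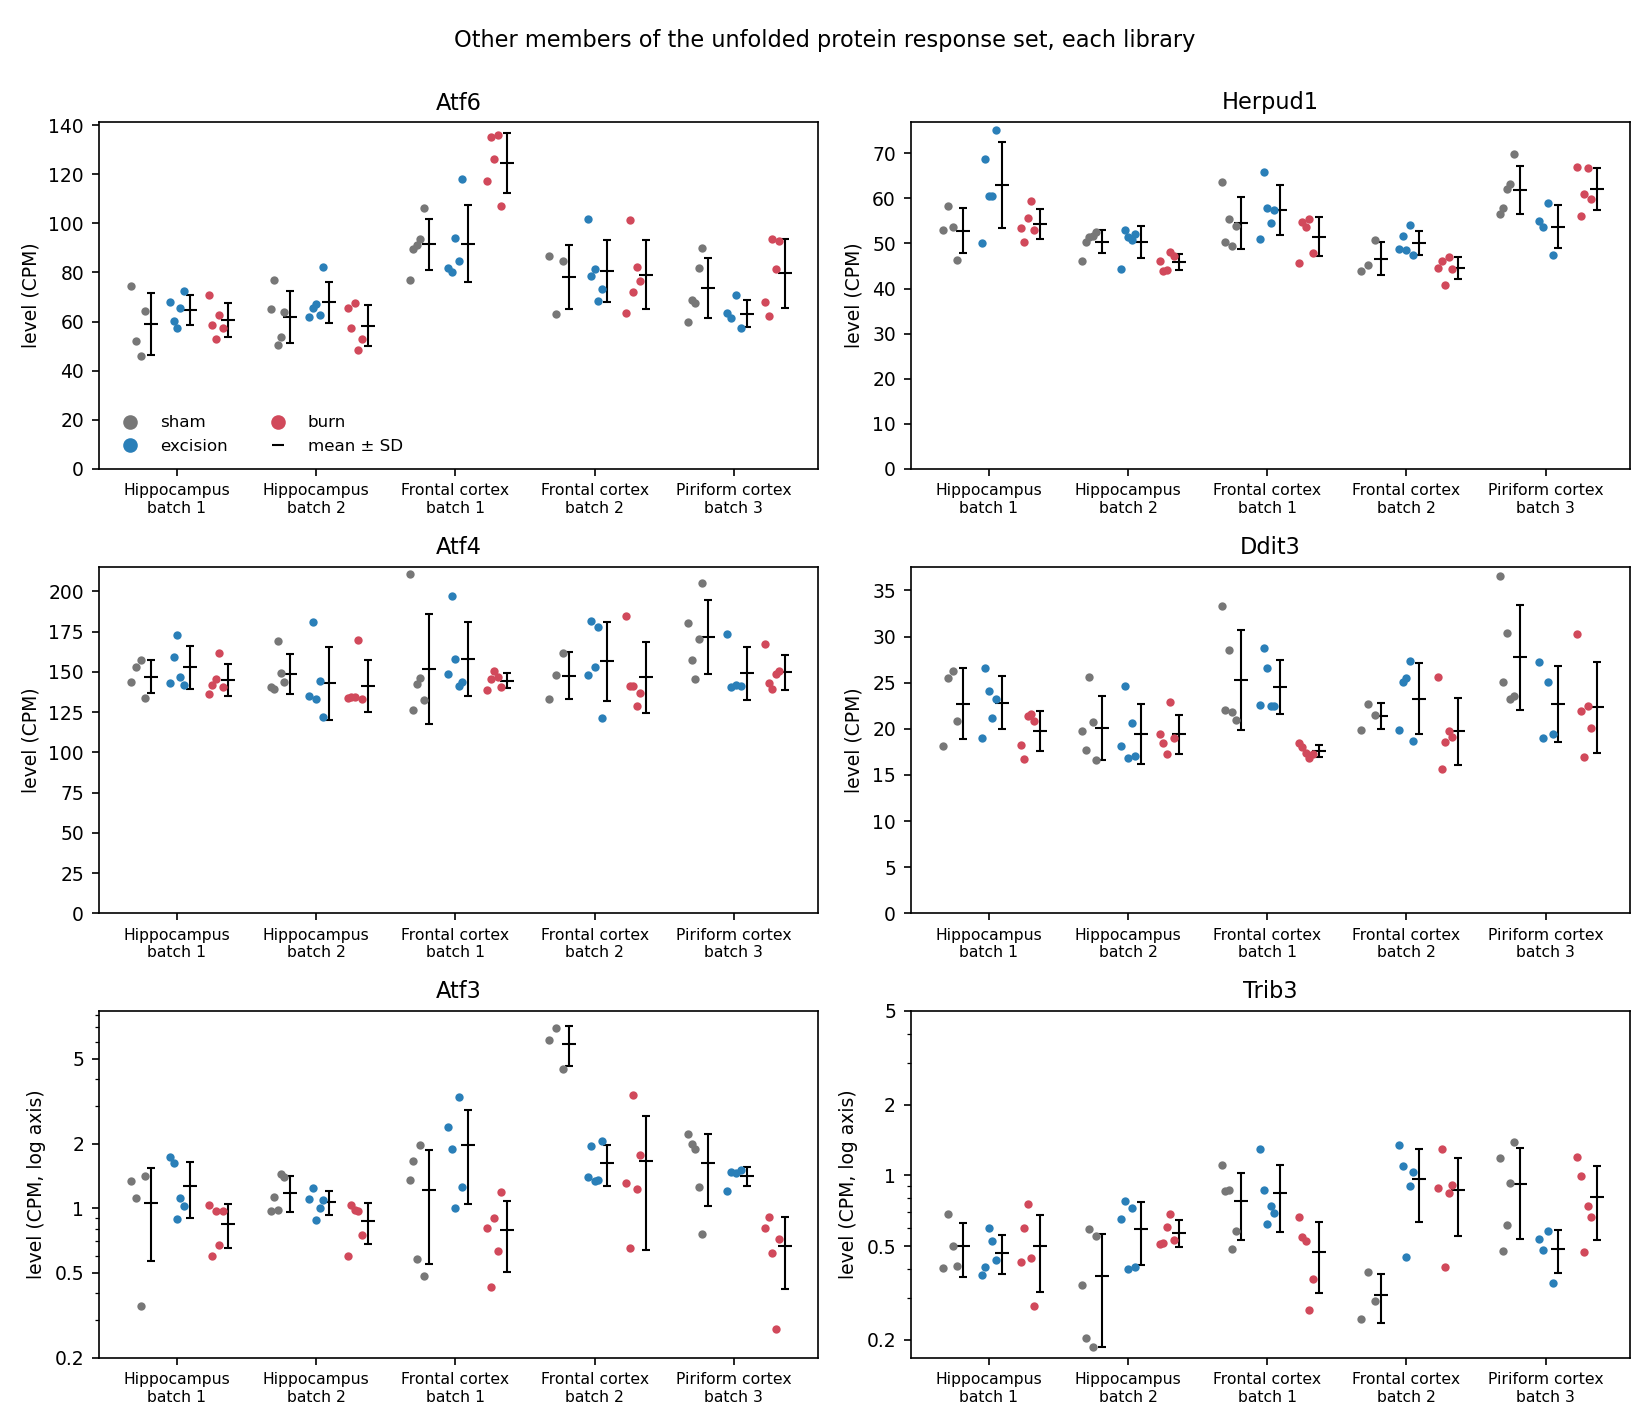
Levels of 6 further members in CPM for each library, by region, batch and treatment, with the mean and SD beside each group; Atf3 and Trib3 are on a log axis. Atf6 was higher and Ddit3 lower in the burn libraries of frontal cortex batch 1, and Atf3 was at 4.48 to 6.93 CPM in the 3 sham libraries of frontal cortex batch 2.

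Atf3, a stress-induced repressor with a CARE motif in its promoter, had the largest fold changes of the members after burn. In frontal cortex batch 2 sham libraries were at 4.48, 6.13 and 6.93 CPM, above every burn library (0.651 to 3.37 CPM) and every excision library (1.34 to 2.06 CPM). In batch 1 sham libraries were at 0.482, 0.578, 1.36, 1.67 and 1.98 CPM and burn libraries at 0.429, 0.630, 0.804, 0.902 and 1.19 CPM, which overlapped. The sham level thus differed between the batches by more than burn differed from sham in batch 1.

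The burn difference from sham in Atf3 was -1.21 (SE 0.37, unadjusted p = 0.00286, adjusted p = 0.139) in the frontal cortex, with -0.63 in batch 1 and -1.79 in batch 2. It was -0.41 (SE 0.18, unadjusted p = 0.0336, adjusted p = 0.241) in the hippocampus. In the piriform cortex burn libraries were at 0.274, 0.618, 0.715, 0.812 and 0.913 CPM, below all excision libraries (1.20 to 1.52 CPM) and below 4 of the 5 sham libraries (0.756, 1.255, 1.89, 1.99 and 2.22 CPM). That difference from sham was -1.29 (SE 0.31, unadjusted p = 0.00067, adjusted p = 0.884), with the sham library of high Prox1 included. In the frontal cortex the excision difference from sham was -0.46 (SE 0.38), with 0.71 in batch 1 and -1.83 in batch 2, so its sign depended on the batch.

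Chac1, a glutathione-degrading enzyme, was higher after burn in the hippocampus at an unadjusted p only (0.21, SE 0.08, unadjusted p = 0.0139, adjusted p = 0.172). Hippocampal burn libraries were at 7.35 to 11.1 CPM and sham libraries at 7.19 to 9.40 CPM. In frontal cortex batch 2 all burn (9.12 to 13.8 CPM) and excision libraries (8.68 to 12.4 CPM) were above the 3 sham libraries (7.26, 7.42 and 8.49 CPM). Trib3, a pseudokinase that curbs ATF4 activity, had the same order in that batch. Its 3 sham libraries were at 0.246, 0.293 and 0.388 CPM, below all burn (0.407 to 1.30 CPM) and excision libraries (0.448 to 1.34 CPM). Fitted alone, that batch called 0 of 21846 genes in burn or excision against sham.

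In batch 1 of the frontal cortex Trib3 was at 0.486 to 1.10 CPM in sham and 0.268 to 0.665 CPM in burn, with overlap and with the lower values in burn. The difference of the burn effect on Trib3 between the batches was 2.19 (SE 0.50, unadjusted p = 0.000156, adjusted p = 0.135) and was not called. The same 3 sham libraries thus held high Atf3 and low Trib3 and Chac1. No treatment contrast over both batches called any of these genes, while Atf3 was called between hippocampus and frontal cortex in sham, a comparison that includes these libraries.

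Set side by side, the arms differed in the count of calls only through Xbp1. After burn against sham, the median log2 fold change of the Xbp1/Atf6 arm was -0.04 in the hippocampus, -0.08 in the frontal cortex and 0.06 in the piriform cortex. For the Atf4/Ddit3 arm it was 0.03, 0.05 and -0.19, and for all genes tested it was 0.01, -0.02 and 0.01. Against excision the Xbp1/Atf6 arm had medians of -0.17, -0.05 and 0.22 and the Atf4/Ddit3 arm -0.03, -0.23 and 0.01. The called members were 1 of 4 and 0 of 6 in each of the 4 burn contrasts of the hippocampus and frontal cortex, and 0 of 4 and 0 of 6 in the 5 other contrasts. Against sham, the members of each arm had both signs in every region. Against excision in the hippocampus all 4 genes of the Xbp1/Atf6 arm were negative (Xbp1 -0.37, Herpud1 -0.17, Atf6 -0.16 and Ern1 -0.14), of which Xbp1 alone was called. In the piriform cortex Atf6 (0.33), Ern1 (0.22) and Herpud1 (0.21) were positive against excision and Xbp1 was at -0.01, with no call.

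**Figure D3:**
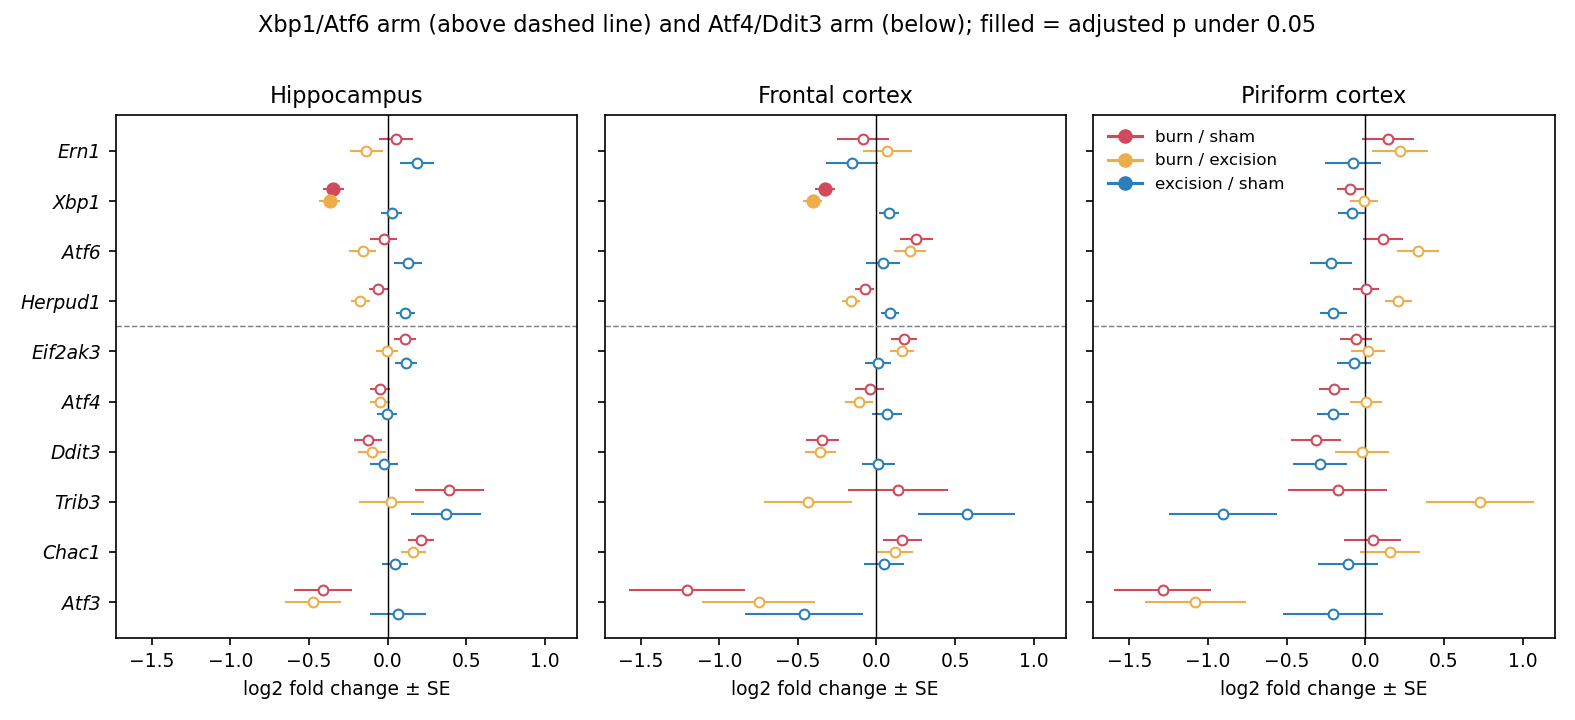
Log2 fold change with SE (horizontal axis) of the 10 members in burn against sham, burn against excision and excision against sham, with a panel for each region, the Xbp1/Atf6 arm above the dashed line and the Atf4/Ddit3 arm below it. Filled points have an adjusted p under 0.05. Xbp1 is filled in 4 contrasts (-0.34 and -0.37 in the hippocampus, -0.33 and -0.41 in the frontal cortex), and no other point is filled.

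The genes that the arms act on were read from 5 further lists, which were chosen with earlier results of these data known. Of 24 targets of XBP1 and ATF6, which fold proteins in the ER or remove them, 7 fell in the hippocampus after burn against sham and 0 rose, with a list median of -0.13 against 0.01 for all genes, in a contrast where 0.741% of all genes were called lower. They included Creld2, a stress-inducible protein of the ER lumen (-0.52, SE 0.08, adjusted p = 0.00162), Sdf2l1, part of an ER chaperone complex (-0.60, SE 0.11, adjusted p = 0.00906), and Syvn1, the ubiquitin ligase HRD1 of ER-associated degradation (-0.25, SE 0.05, adjusted p = 0.00906). They also included the secreted factor Manf (-0.40, SE 0.08, adjusted p = 0.0111) and the disulfide isomerase Pdia6 (-0.31, SE 0.06, adjusted p = 0.0146), and the others were Hspa5, the ER chaperone BiP, and Pdia4. Of these 7, the 4 genes Creld2, Hspa5, Pdia6 and Syvn1 held the ERSE shown above, as did 9 of the 21 targets with a window. The other holders, Calr, Canx, Derl3, Dnajc3 and Hsp90b1, were not called.

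Against excision, 4 of the 24 fell in the hippocampus (Creld2, Syvn1, Sdf2l1 and Manf, with a median of -0.09 over the list), where 0.143% of all genes were called lower. In the frontal cortex 4 fell against sham (Pdia4, Creld2, Hspa5 and Sdf2l1, median -0.14) and 5 against excision (the same genes and Pdia6, median -0.17), where 0.119% and 0.128% of all genes were called lower. There Pdia4 fell by 0.45 (SE 0.07, adjusted p = 0.00403) and Hspa5 by 0.42 (SE 0.08, adjusted p = 0.0203) against sham. In the other 5 contrasts 0 of the 24 were called. Creld2 and Sdf2l1 were called in all 4 contrasts in which Xbp1 was called, and these contrasts share their burn libraries within a region.

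In the hippocampus against excision, the count of lowered targets was 7 without burn replicate 8, 2 without excision replicate 4 and 1 without excision replicate 5. In the frontal cortex it was 2 against sham without sham replicate 7 or 8, and 9 against excision without burn replicate 6. Without the libraries whose titles disagree it was 3 against each, and with the treatment taken from the titles it was 0 against each. With a replicate block the frontal cortex count was 0 against sham and 3 against excision, and batch 2 alone gave 0 against both. In the hippocampus, the fit without the batch term gave 1 against sham and 1 against excision. Without the hippocampal libraries under 10 M counts it was 6 against sham and 0 against excision, and batch 2 alone gave 6 and 0. Of 23 ATF4 and CHOP targets tested, which serve amino acid synthesis, transport, tRNA charging and stress, 0 were called in any of the 9 treatment contrasts. Their medians after burn against sham were 0.02 in the hippocampus, 0.02 in the frontal cortex and -0.08 in the piriform cortex. Calls were likewise 0 in the 9 contrasts for 13 genes of the PERK branch and eIF2 machinery, for the tested genes among 14 partners of IRE1 and ATF6, and for 6 RNAs known to be cut by IRE1. In batch 1 alone, ATF4 and CHOP targets gave 1 lower call in the hippocampus, and 2 higher and 2 lower in the frontal cortex, against sham, and 1 lower in the frontal cortex against excision. XBP1 and ATF6 targets gave 1 higher call in batch 1 alone in the hippocampus against sham, beside 2 lower. In the frontal cortex against excision they gave 1 higher, beside 4 lower. Batch 1 alone called 1324 of 18680 genes in the hippocampus against sham. In the frontal cortex it called 1328 of 20430 genes against sham and 1318 against excision. Over the alternatives the partners of IRE1 and ATF6 reached up to 2 higher and 1 lower calls in the frontal cortex against sham, and up to 1 lower in the hippocampus against sham and against excision. The RNAs cut by IRE1 reached 1 higher in the hippocampus against sham and 1 lower in the frontal cortex against excision. The difference between the lists was not tested.

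**Figure D4:**
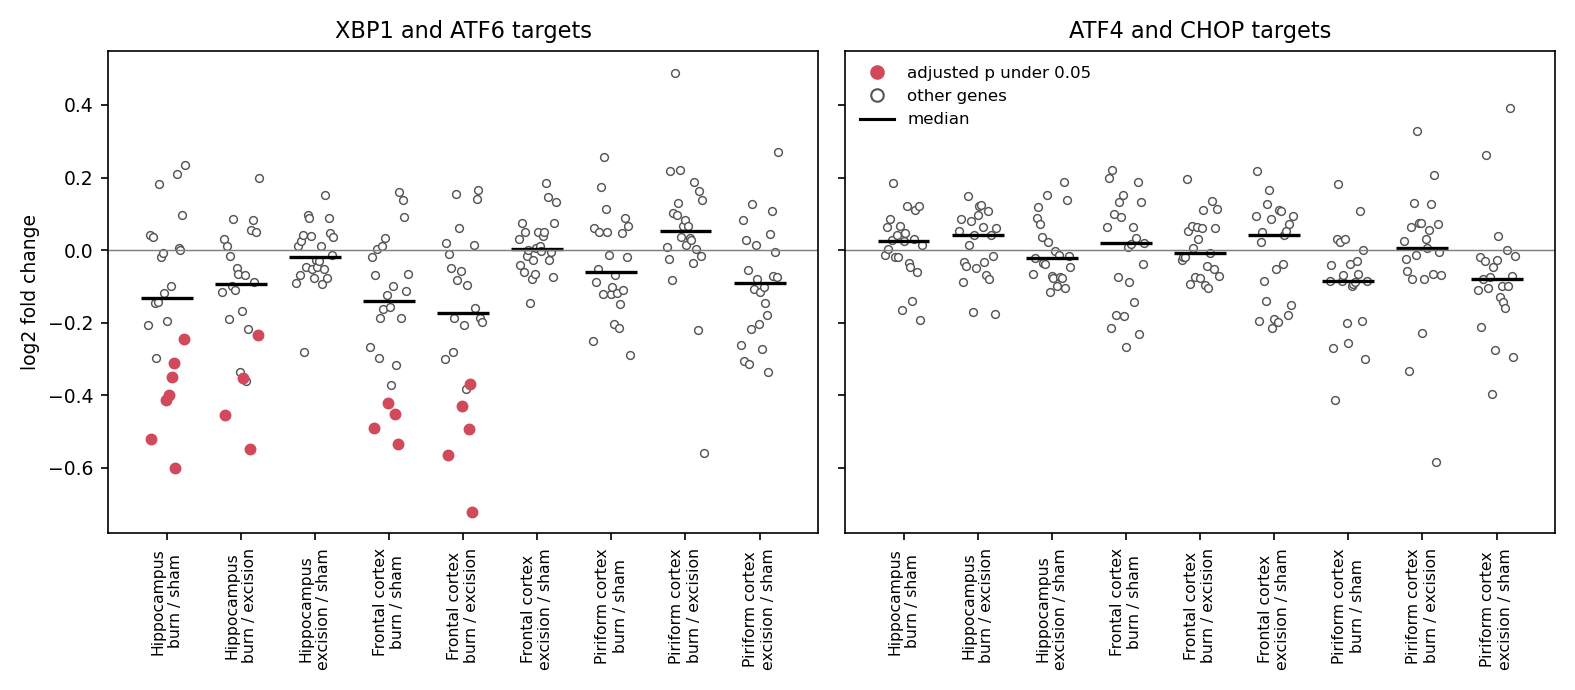
Log2 fold change (vertical axis) of each tested gene of the XBP1 and ATF6 targets (left) and of the ATF4 and CHOP targets (right) in the 9 treatment contrasts, with the median as a bar and genes of adjusted p under 0.05 filled. Filled genes are all below 0 and appear only on the left, 7 and 4 in the hippocampal burn contrasts and 4 and 5 in those of the frontal cortex.

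Members were also compared library by library, as deviations of log2 CPM from the mean of each batch and treatment, so that differences between the groups do not enter. Of 18 relations (6 gene pairs in 3 regions), 10 passed a permutation test within groups with Benjamini-Hochberg adjustment. Xbp1 and Herpud1 varied together in the hippocampus (r = 0.796, permutation p = 0.00012, adjusted 0.00054; rho = 0.687, permutation p = 0.00039, adjusted 0.0023; n = 29), with 0.825 and 0.826 within the batches. They did so in the frontal cortex (r = 0.587, permutation p = 0.0014, adjusted 0.0043; rho = 0.592, permutation p = 0.0021, adjusted 0.0075; n = 28), with 0.784 and 0.41 within the batches. Without the 2 libraries farthest from the median of Xbp1, r was 0.672 and 0.674. In the piriform cortex r was 0.185 (permutation p = 0.55, adjusted 0.58; rho = 0.222, permutation p = 0.48, adjusted 0.54; n = 14).

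Within the other arm, Atf4 and Ddit3 varied together in the hippocampus (r = 0.779, permutation p = 2e-05, adjusted 0.00036; rho = 0.710, permutation p = 0.00024, adjusted 0.0023) and in the frontal cortex (r = 0.805, permutation p = 0.00015, adjusted 0.00054; rho = 0.702, permutation p = 0.00062, adjusted 0.0028). Their r without the 2 farthest libraries was 0.719 and 0.688, and within the batches it was 0.633 to 0.88. In the piriform cortex r was 0.33 (adjusted permutation p = 0.37; rho = 0.336). Atf4 and Chac1 passed in all 3 regions, with r of 0.639, 0.583 and 0.833 and adjusted permutation p of 0.00054, 0.017 and 0.0067. Their r within the batches was 0.529 and 0.718 in the hippocampus and 0.345 and 0.884 in the frontal cortex. Their rho was 0.499, 0.510 and 0.820 (adjusted permutation p of 0.012, 0.021 and 0.012), and r without the 2 farthest libraries was 0.526, 0.511 and 0.761. Atf4 and Trib3 passed in the hippocampus (r = 0.502, adjusted permutation p = 0.0099; rho = 0.558) and the piriform cortex (r = 0.719, adjusted permutation p = 0.019; rho = 0.789), while in the frontal cortex r was 0.15 (adjusted permutation p = 0.56; rho = 0.053).

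Across the arms, Xbp1 and Atf4 passed in the frontal cortex (r = 0.774, permutation p = 8e-05, adjusted 0.00054; rho = 0.709, permutation p = 0.00029, adjusted 0.0023), with 0.711 without the 2 farthest libraries. In the hippocampus (r = 0.255, adjusted permutation p = 0.37; rho = 0.208) and piriform cortex (r = 0.29, adjusted permutation p = 0.39; rho = 0.319) they did not. Xbp1 and Atf6, the factors that give the first arm its name, passed in no region, with r of -0.016, -0.363 and -0.595 (adjusted permutation p of 0.93, 0.14 and 0.084; rho of -0.095, -0.330 and -0.569). Whether r differed between regions, or from the r of other gene pairs, was not tested. The points of a region share their normalisation, and whether depth or RNA quality moved with these deviations was not tested.

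**Figure D5:**
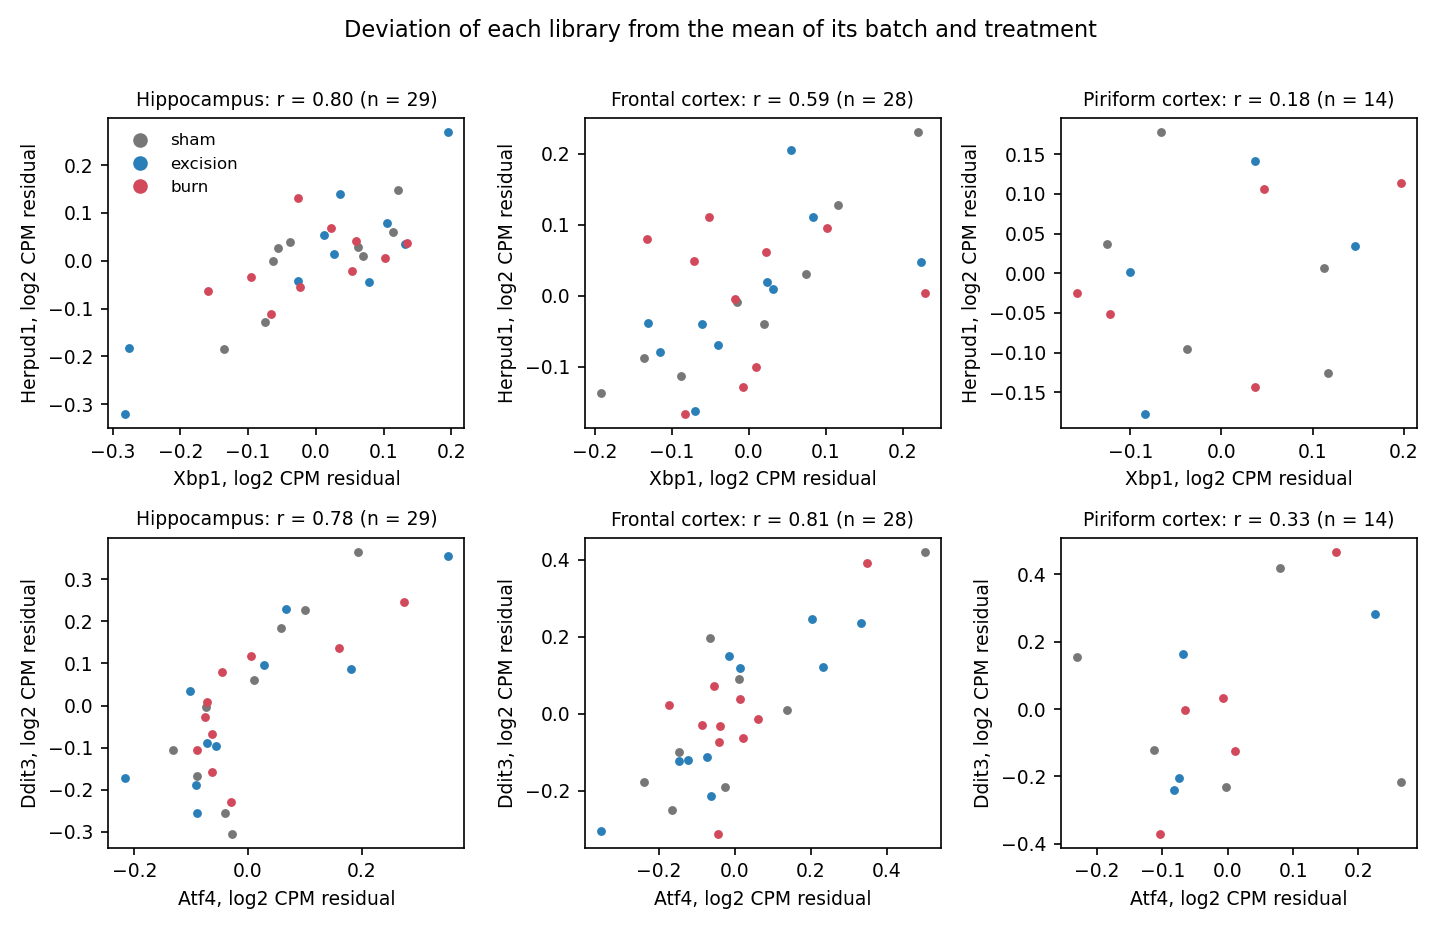
Deviation of log2 CPM from the mean of the batch and treatment for each library, Herpud1 against Xbp1 (upper row) and Ddit3 against Atf4 (lower row), in the 3 regions and coloured by treatment. The points rise together in the hippocampus (r of 0.796 and 0.779) and frontal cortex (r of 0.587 and 0.805), and r was 0.185 and 0.33 in the piriform cortex.

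Over all 71 libraries, after the mean of each region and batch was removed, the 5 genes most like Xbp1 among 18867 were Sdf2l1 (r = 0.892), Creld2 (r = 0.875), Manf (r = 0.866), Hspa5 (r = 0.837) and Pdia4 (r = 0.831), and all of them are on the list of XBP1 and ATF6 targets. Treatment differences remain in these deviations. The list holds 24 genes and was chosen with earlier results of these data known, so the overlap is a description and not independent support. Among the members Herpud1 came closest to Xbp1 (rank 35, r = 0.644), then Ddit3 (rank 94, r = 0.569) and Atf4 (rank 508, r = 0.424), while Eif2ak3 (r = -0.281), Ern1 (r = -0.207), Atf6 (r = -0.178) and Chac1 (r = -0.167) had a negative r. The 5 genes most like Atf4 were Polr2c (r = 0.833), the pseudogene Llph-ps2 (r = 0.825), its parent Llph (r = 0.816), Hax1 (r = 0.812) and the seryl-tRNA synthetase Sars (r = 0.81), of which Sars is on the list of ATF4 and CHOP targets. Reads of Llph and Llph-ps2 may be split between the copies by the counting. Among the members Ddit3 was closest to Atf4 (rank 469, r = 0.652) and Ern1 the most opposed (r = -0.592). Herpud1 (rank 2201, r = 0.475) and Xbp1 (rank 2769, r = 0.424), of the other arm, ranked before Chac1 (rank 2796, r = 0.421) and Trib3 (rank 3965, r = 0.324).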

How the data were processed

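Single-end reads of 100 bases from bulk RNA were processed by the authors. FastQC 0.11.3, fastp, STAR, DESeq2 1.24.0 and build GRCm38 are named in the submitters' processing notes; which counter, annotation release and strand setting were used is not given in the sources used here. The authors deposited whole-number read counts per gene for 71 libraries (6.65 to 87.8 M, or 1e6, counts, median 57 M). Symbols came from GENCODE M21 on GRCm38, which matched 52135 of 55416 identifiers. The 3281 unmatched identifiers held 0.809% of counts and stayed in library sizes and tests.

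Counts were tested with edgeR 4.0.16 in R 4.3.3 (TMM, filterByExpr, quasi-likelihood F test, all treatments of a region in 1 fit, batch as a term in hippocampus and frontal cortex), with Benjamini-Hochberg adjustment over all genes tested. CPM used TMM library sizes and RPKM added exon length. Alternatives were DESeq2 1.42.0, other size factors, no filter, no batch term, each batch alone, a replicate block, titles as labels, and leaving out libraries. The procedure was tested on simulated data. No pair of libraries within a group was identical or differed by less than sampling noise.

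All 10 members were described in every contrast. Of each further list the called genes were named, with values for at most 5 by smallest p, and the 5 genes most like Xbp1 and Atf4 were named by Pearson r. Members, arms and lists were chosen with earlier results of these data known. Leaving out single sham libraries in the comparisons of regions was added after seeing the data.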

Additional observations from a re-analysis of the deposited data

Results flagged for a closer look

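In 8 of 90 groups of 4 to 10 libraries, 1 member by region and treatment each, a library lay far from the others relative to the range of its group. Chance alone gives this in about 1 of 20 groups, and 4 of the 8 came from the same library. Frontal cortex burn replicate 6 held Atf4 at 185.0 CPM (the others 129 to 151), Ddit3 at 25.57 CPM (15.7 to 19.8), Eif2ak3 at 17.18 CPM (24.1 to 27.4) and Ern1 at 4.365 CPM (6.73 to 9.70). Without it, Ddit3 passed the test in the frontal cortex, as reported above.

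Atf4 was at 173.6 CPM in piriform cortex excision replicate 1, with the others at 140.3 to 142. Chac1 was at 12.76 CPM in piriform cortex burn replicate 1 (8.99 to 9.80) and at 10.86 CPM in hippocampus excision replicate 7 (7.20 to 8.71). Atf3 was at 0.3492 CPM in hippocampus sham replicate 3, with the others at 0.971 to 1.44. Hippocampus and frontal cortex groups span 2 batches, so the distance of a library can include the batch.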

How the results depend on the processing

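The direction of Xbp1 after burn was the same under all alternatives in the hippocampus and frontal cortex, while its call was not. The count of members called was 1 in each of these 4 contrasts. In the hippocampus it became 0 against sham with batch 1 alone or no batch term, and 0 against excision with batch 2 alone, no batch term, a replicate block or without the libraries under 10 M counts. In the frontal cortex against sham it became 2 with batch 1 alone and 0 with batch 2 alone, no batch term, no count filter, a replicate block, treatment from the titles or without the libraries with conflicting labels. Against excision it became 3 with batch 1 alone, 2 with DESeq2, and 0 with batch 2 alone, a replicate block or the titles. Batches alone hold fewer libraries, and the cause of these changes was not tested. Xbp1 was called in 6 of 8, 4 of 8, 2 of 9 and 6 of 9 alternatives in these contrasts, in that order.

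For burn, leaving out 1 library gave 1 member in every hippocampal fit, 0 to 2 in the frontal cortex against sham and 1 to 2 against excision. For excision against sham, leaving out 1 library gave 0 members in every fit of both regions. In sham it gave 2 to 5 members between hippocampus and frontal cortex (5 with all libraries) and 0 to 2 between piriform and frontal cortex (1 with all). The second was Atf4, called without frontal cortex sham replicate 1.

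Deviations of libraries with the same number in their titles were compared across treatments, within a region and batch. Their median correlation was 0.0 (-0.4 to 0.499, 63 pairs, 25 of them over 0.1). For different numbers it was -0.002 (-0.496 to 0.595, 241 pairs, 76 of them over 0.1). Pairing of libraries between regions was not tested. With the number as a replicate block, which left out the 4 libraries with conflicting labels, Xbp1 was at -0.34 (adjusted p = 0.0426) and -0.37 (adjusted p = 0.0608) in the hippocampus against sham and excision, and -0.29 (adjusted p = 0.22) and -0.38 (adjusted p = 0.1) in the frontal cortex.

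Counts of all genes called moved by over 1.5 times. In the hippocampus against sham 202 genes became 629 with DESeq2, 1324 and 31 in batches 1 and 2 alone, 106 without the batch term and 123 without the filter. Against excision 41 became 303 with DESeq2, 197 and 0 in the batches, 8 without the batch term, 21 without the filter, 21 with the block and 3 without shallow libraries. In the frontal cortex against sham 59 became 328 with DESeq2, 1328 and 0 in the batches, 26 without the batch term, 24 without the filter, 0 with the block or titles and 32 without conflicting labels. Against excision 44 became 175 with DESeq2, 1318 and 0 in the batches, 12 without the filter, 8 with the block, 1 with the titles and 15 without conflicting labels. Lowered XBP1 and ATF6 targets numbered 1 to 9 and 0 to 9 in the hippocampus against sham and excision, and 0 to 6 and 0 to 9 in the frontal cortex. All 36 recomputed correlations kept their sign, and 3 moved by more than their error, to 0.672 (Xbp1 and Herpud1, hippocampus), 0.526 (Atf4 and Chac1, hippocampus) and 0.688 (Atf4 and Ddit3, frontal cortex), each without the 2 farthest libraries. Depth limited Trib3 most, which had as few as 2 counts in a library.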
